A study of Homo sapiens with 17 samples.

Results

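DEAD and DEAH box proteins are RNA helicases, enzymes that spend ATP to pull apart RNA strands or strip proteins from RNA. Their genes were taken here as every row of the deposited tables whose symbol starts with DDX or DHX and a number, with antisense transcripts left out. That rule found 50 genes of 14613 in all, 49 of them in both tables, with DDX4 listed in the heat shock table alone. Levels came from 17 libraries of the human prostate cancer cell line PC3M, made by QuantSeq FWD, where each captured transcript gives 1 tag close to its 3′ end. The study's title links HSF1, the main transcription factor of the heat shock response, the oxygenase JMJD6 and heat shock proteins (HSP) when proteins misfold.

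In the MG132 table, with 8 libraries, HSF1 knockout (KO) cells received the proteasome inhibitor MG132 (n = 2, libraries A and B, for which the labels give no siRNA). Cells carrying an siRNA against JMJD6 (siJMJD6) received MG132 (n = 2), cells carrying a non-targeting siRNA (siNT) received MG132 (n = 2), and siNT cells received the solvent DMSO (n = 2). MG132 was used at 2.5 µM for 4 hours. In the heat shock table, with 9 libraries, siJMJD6 cells were heat shocked (n = 3), siNT cells were heat shocked (n = 3), and siNT cells were left without stress (basal, n = 3). Heat shock lasted 1 hour at 42 °C, with 2 hours of recovery. Each siRNA was given for 72 hours. Neither siJMJD6 nor KO cells without stress were analysed here. The labels do not say whether KO A and B are separate clones, or whether replicates are separate cultures, so the p-values rest on a spread between libraries that may be technical.

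Helicases of this superfamily share a core in which one short motif, spelled Asp-Glu-Ala-Asp or Asp-Glu-Ala-His, helps to bind and cleave ATP and gives the families their names. DEAD box proteins usually open short duplexes locally, whereas DEAH box proteins can move along a strand. Together they serve every step in the life of an RNA, from splicing in the nucleus and ribosome assembly in the nucleolus to export, translation, decay and the sensing of foreign RNA.

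The motif was read in the coding sequences of the GENCODE release 29 transcripts (GRCh38). It was spelled DEAD in 26 of the 50 genes, DEAH in 9, and with another residue in its place in 13. No match was found in 2, DDX26B, listed today as the Integrator subunit relative INTS6L, and DHX32. The rule also takes in DDX11, a DNA helicase. The stretches below, 36 bases each and written 5′ to 3′ on the coding strand, show the motif in capitals for the 4 helicase genes that changed with the JMJD6 siRNA in both tables, and then for DDX50, which lies beside DDX21 on chromosome 10 and is its closest relative.
DHX33: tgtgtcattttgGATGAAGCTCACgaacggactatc
DDX39A: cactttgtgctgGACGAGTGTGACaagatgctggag
DDX21: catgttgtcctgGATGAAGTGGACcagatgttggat
DDX24: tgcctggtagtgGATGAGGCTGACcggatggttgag
DDX50: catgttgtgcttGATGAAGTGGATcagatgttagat
DHX33 and DDX24 carry the DEAH and DEAD spellings, while DDX39A, DDX21 and DDX50 vary the residue before the last. In RefSeq (GRCh38.p14), DHX33 lies on chromosome 17 from 5440917 to 5468982, DDX39A on chromosome 19 from 14408798 to 14419383, DDX21 on chromosome 10 from 68956170 to 68985068, DDX24 on chromosome 14 from 94048287 to 94081202, and DDX50 on chromosome 10 from 68901315 to 68946847.

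The values are the authors' normalised counts, given as 2 separately normalised tables, so each test stayed within 1 table. Their column totals ran from 1505830 to 1819640 in the MG132 table and from 1630640 to 1726640 in the heat shock table, and are not read depths. JMJD6 had 16.6 to 26.6 normalised counts in siJMJD6 cells under MG132 against 130 to 167 in siNT cells, and 7.66 to 14.6 after heat shock against 209 to 253. HSF1 had 175 and 285 in KO cells against 1687 and 1884 in siNT cells under MG132. JMJD6 had 80.5 and 79.4 in KO cells, below both siNT libraries under MG132. HSF1 had 2968 and 2216 in siJMJD6 cells under MG132, above both siNT libraries. All 5 epithelial markers were listed, and none of 5 blood and immune markers was listed. Under MG132 the epithelial sum was 2141 to 2472 in siJMJD6 cells, 1479 to 2026 in siNT cells and 2081 to 2089 in KO cells. After heat shock it was 2654 to 2881 in siJMJD6 cells and 2310 to 2500 in siNT cells. Of 5 markers of androgen receptor-positive prostate, 2 were listed with MG132 and 4 with heat shock. After heat shock these summed to 9.59 to 19.9 in siJMJD6 cells and 2.84 to 6.71 in siNT cells. The fibroblast list also moved with the groups. Under MG132 or DMSO, 4 of its 5 genes were listed and summed to 85.6 to 101 in KO cells, 35.2 to 55.9 in siJMJD6 cells, 110 to 252 in siNT cells under MG132 and 228 to 342 under DMSO. In the other table all 5 were listed, and their sum was 115 to 161 in siJMJD6 cells, 270 to 311 in siNT cells after heat shock and 354 to 369 at rest. Of the endothelial list 1 of 3 genes was listed, at 24.6 or less in every library and after heat shock at 4.86 to 9.62 in siJMJD6 cells against 10.6 to 18.9 in siNT cells. The part of these genes in the helicase results that follow was not tested.

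The helicase genes together held 0.368% to 0.471% of a library's total in the MG132 table and 0.401% to 0.480% in the heat shock table. Since 1 tag is read per transcript, levels were compared between genes without dividing by length. DDX21, a nucleolar helicase that acts in the transcription and processing of ribosomal RNA, was the highest in both tables, with a mean of 1868 normalised counts over the MG132 table and 1419 over the heat shock table. It alone held 26.7% and 19.2% of the helicase total. The next in the MG132 table were DDX5, a nuclear cofactor of transcription and splicing, at 450.4, then DDX27 at 404, DDX49 at 362 and DDX24 at 333, the last 3 all factors of ribosome assembly. In the heat shock table DDX27 followed at 554, then DDX5 at 512, DDX6, which represses translation and promotes decay, at 416, and DDX24 at 353. The lowest means in the MG132 table were those of DDX60, an antiviral helicase, at 2.26 and DDX59 at 2.89. In the heat shock table they were those of DDX4, the germ cell helicase, at 1.17 with a range of 0 to 3.43, and of DDX60 at 3.70.

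**Figure D1:**
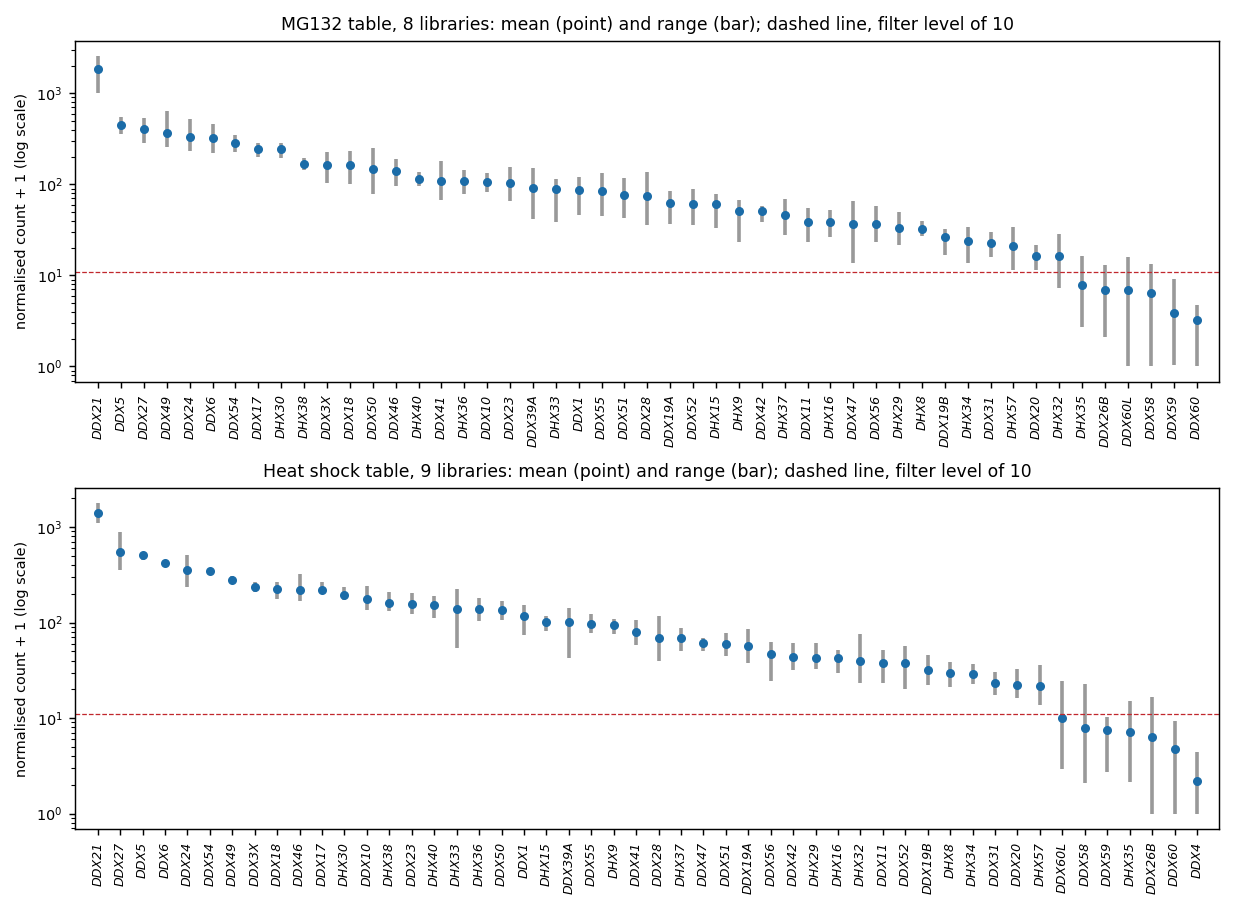
Mean normalised count plus 1 (log axis, points) and range over libraries (bars) of each helicase gene, in the MG132 table with 8 libraries (top) and the heat shock table with 9 (bottom); the dashed line marks the filter of 10. DDX21 stands above all others in both, at means of 1868 and 1419, and the means of DHX35, DDX26B, DDX58, DDX59, DDX60 and DDX60L lie below the line in both.

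A gene was tested where it reached 10 normalised counts in at least 2 libraries of the MG132 table or 3 of the heat shock table, which kept 45 and 44 of the helicase genes. Those left out were DDX58, DDX59, DDX60 and DHX35 in both tables, with DDX26B and DDX4 also left out of the heat shock table. All differences are log2 fold changes of the normalised count plus 1 from limma, given with their standard error (SE), and a gene was called at a Benjamini-Hochberg adjusted p under 0.05 over all tested genes. Of the 45 tested, 18 were called in at least 1 of 6 comparisons and 27 in none. That share was not computed over all genes, of which 46.4% were called in siJMJD6 against siNT cells after heat shock alone. The 18 include DDX60L, which reached the filter there through its siJMJD6 libraries alone. In the MG132 table the ratio of the highest to the lowest group mean had a median of 1.75 and passed 2 for 13 genes. In the heat shock table that median was 1.32, and 4 genes passed 2. This ratio was not computed over all genes. The largest in the MG132 table were those of DDX60L at 6.16 and DDX26B at 3.08. In the heat shock table it was that of DDX60L at 5.83. These genes had low counts and reached the filter only with groups where they were high.

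**Figure D2:**
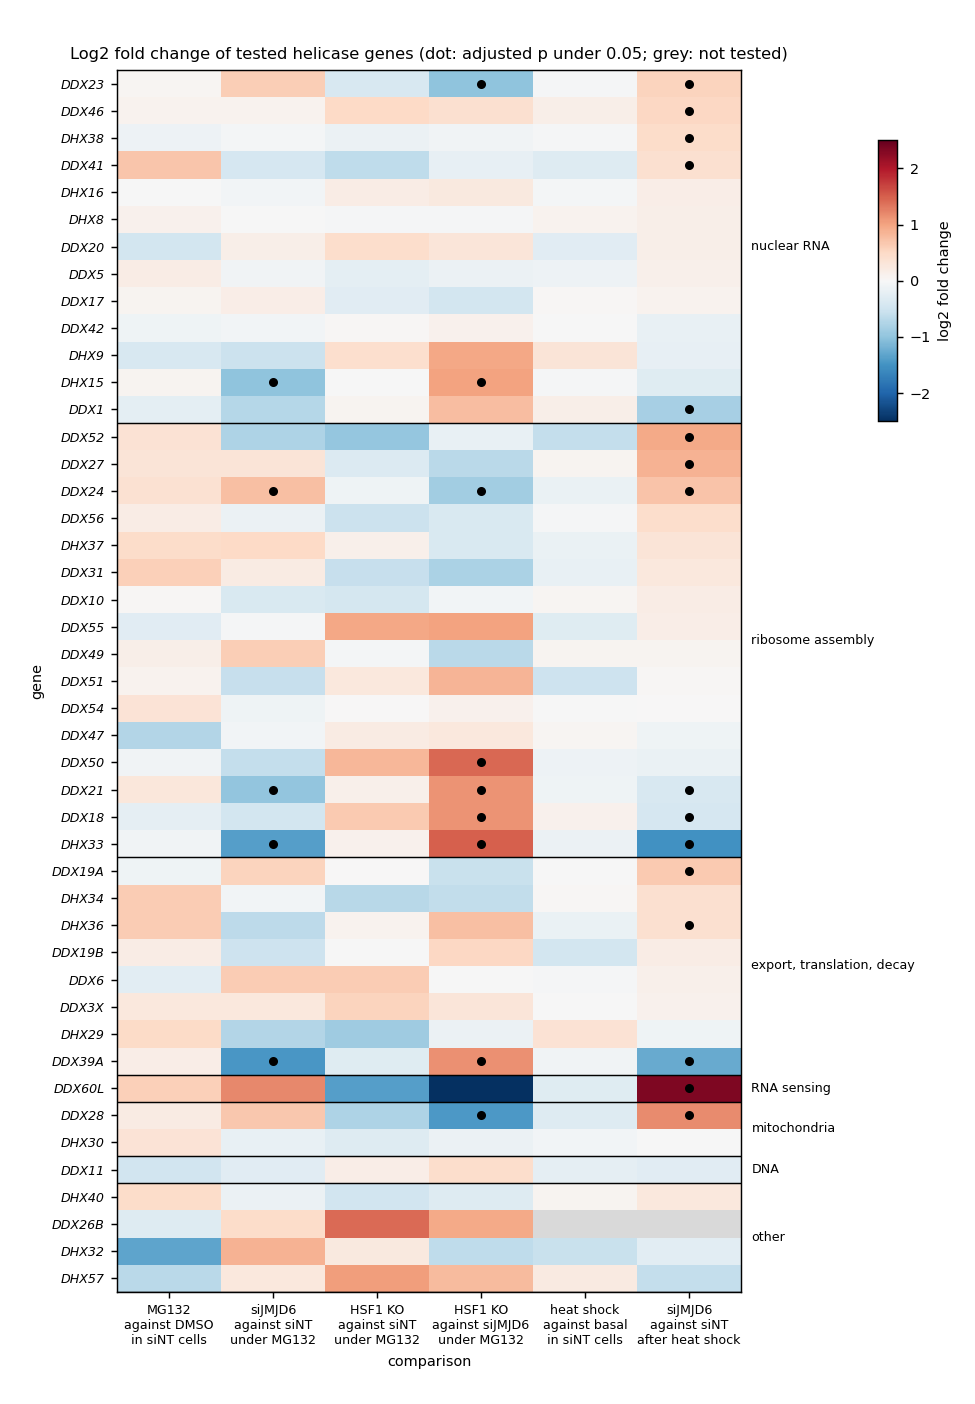
Log2 fold change of each tested helicase gene (rows, ordered by role) in the 6 comparisons (columns), red for higher and blue for lower in the group named first; a dot marks an adjusted p under 0.05 and grey a gene that was not tested; DDX60L was tested only through its siJMJD6 libraries. Dots occur in the 2 columns of the JMJD6 siRNA and in that of KO against siJMJD6, and none in those of MG132 against DMSO, heat shock against basal and KO against siNT.

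The JMJD6 siRNA under MG132 went with lower levels of 4 helicase genes and a higher level of 1, of 45 tested. That was 11.1% of the helicase genes, 2.22% higher and 8.89% lower, against 13.6% of all 9778 tested genes, 6.22% higher and 7.35% lower. Among nuclear helicases 1 of 13 fell and 0 rose, among ribosome assembly helicases 2 of 16 fell and 1 rose, and among those of export, translation and decay 1 of 8 fell. The median helicase difference was -0.06, against -0.05 over all tested genes. Called or not, 16 helicase genes were lower and 9 higher in every siJMJD6 library than in every siNT library, where 28.1% and 24.9% of all genes were so placed. The 9 include DDX60L, which passed the filter through its siJMJD6 libraries alone. Without DDX60L and DDX26B, which would miss the filter if 1 group were not counted, 1 of 43 was called higher and 4 lower. At an unadjusted p under 0.05 there were 3 higher and 8 lower, against 28.3% of all genes. In bulk RNA of this kind, fewer cells of a type and less RNA per cell cannot be told apart.

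DHX33, a DEAH box helicase that promotes transcription of ribosomal RNA, had 37.3 and 39.0 normalised counts in siJMJD6 cells under MG132, against 94.7 and 106 in siNT cells. Both siJMJD6 libraries lay below every other library of the table, whose KO cells held 103 and 114 and whose DMSO cells held 101 and 113. The difference was -1.37 ± 0.28 (SE, n = 2 each), with a limma adjusted p of 0.00778. DDX39A, a helicase of mRNA export, had 41.5 and 40.8 in siJMJD6 cells, against 88.6 and 149 in siNT cells, a difference of -1.46 ± 0.35 and an adjusted p of 0.0177. The siNT libraries lay far apart, and without siNT MG132 replicate 2 the call was lost, as it was without the filter on low values, with adjusted p up to 0.125.

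DDX21 had 1199 and 1014 normalised counts in siJMJD6 cells, against 1994 and 2378 in siNT cells under MG132. Its siJMJD6 libraries were the lowest of the table, and the difference was -0.98 ± 0.22 (limma adjusted p 0.0125). The call was lost, with adjusted p up to 0.0856, when siNT MG132 replicate 1 or 2 was left out or when only these groups were fitted. DHX15, which takes apart spent spliceosomes, had 35.1 and 32.5 in siJMJD6 cells, against 70.0 and 68.1 in siNT cells, a difference of -1.01 ± 0.31 with an adjusted p of 0.0452. DDX24, a nucleolar helicase of the large ribosomal subunit, was the 1 gene that rose, with 504 and 522 in siJMJD6 cells against 286 and 323 in siNT cells, a difference of 0.75 ± 0.22 and an adjusted p of 0.0423. The groups did not overlap for these 3 genes, but DHX15 and DDX24 lost their calls when any 1 of the 8 libraries was left out or only these groups were fitted, with adjusted p up to 0.173 and 0.205. DHX15 also lost it without the filter and under TMM or quantile scaling.

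The same siRNA after heat shock went with a rise of 11 and a fall of 5 helicase genes, of 44 tested. That was 36.4% of the helicase genes, 25% higher and 11.4% lower, against 46.4% of all 9831 tested genes, 21.4% higher and 24.9% lower. The lower share of helicases thus stood below that of all genes and the higher share close to it, and neither gap was tested. One of the 11 higher genes, DDX60L, passed the filter on low values through its siJMJD6 libraries alone, and without it 10 of 43 were higher. The median helicase difference was 0.14, against -0.03 over all tested genes. Nuclear helicases held 4 higher and 1 lower of 13, ribosome assembly helicases 3 higher and 3 lower of 16, and those of export, translation and decay 2 higher and 1 lower of 8. Counting only strict separation of the libraries, 13 helicase genes were higher and 7 lower in every siJMJD6 library, where 25.2% and 28.8% of all genes were. At an unadjusted p under 0.05 there were 12 higher and 6 lower, against 52.6% of all genes. The 13 and the 12 each include DDX60L, which was tested only through the group where it is high.

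DHX33 had 62.5, 60.7 and 53.9 normalised counts in siJMJD6 cells after heat shock, against 197, 157 and 156 in siNT cells. The groups did not overlap, and the difference was -1.51 ± 0.14 (SE, n = 3 each; limma adjusted p 5.29e-11). Basal siNT cells held 172, 224 and 169, within or above the range of heat-shocked siNT cells. DDX39A had 55.1, 41.6 and 52.9 in siJMJD6 cells, against 110.2, 122 and 130.1 in siNT cells, a difference of -1.27 ± 0.15 with an adjusted p of 1.57e-08. DDX1, which works with the tRNA ligase complex, had 87.8, 73.4 and 79.4 in siJMJD6 cells, against 152, 146 and 132 in siNT cells, a difference of -0.83 ± 0.13 and an adjusted p of 4.67e-06. Every siJMJD6 library was below every siNT library for both genes.

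DDX21 also fell, though its difference was not tested against that under MG132. It had 1171, 1090.1 and 1143 normalised counts in siJMJD6 cells, against 1606, 1493 and 1418 in siNT cells, a difference of -0.41 ± 0.08 and a limma adjusted p of 8.71e-05. DDX18, whose yeast counterpart Has1 acts in the assembly of both ribosomal subunits, had 193, 175 and 187 in siJMJD6 cells, against 255, 227 and 266 in siNT cells. Its groups did not overlap, and the difference was -0.42 ± 0.11 with an adjusted p of 0.00212.

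**Figure D3:**
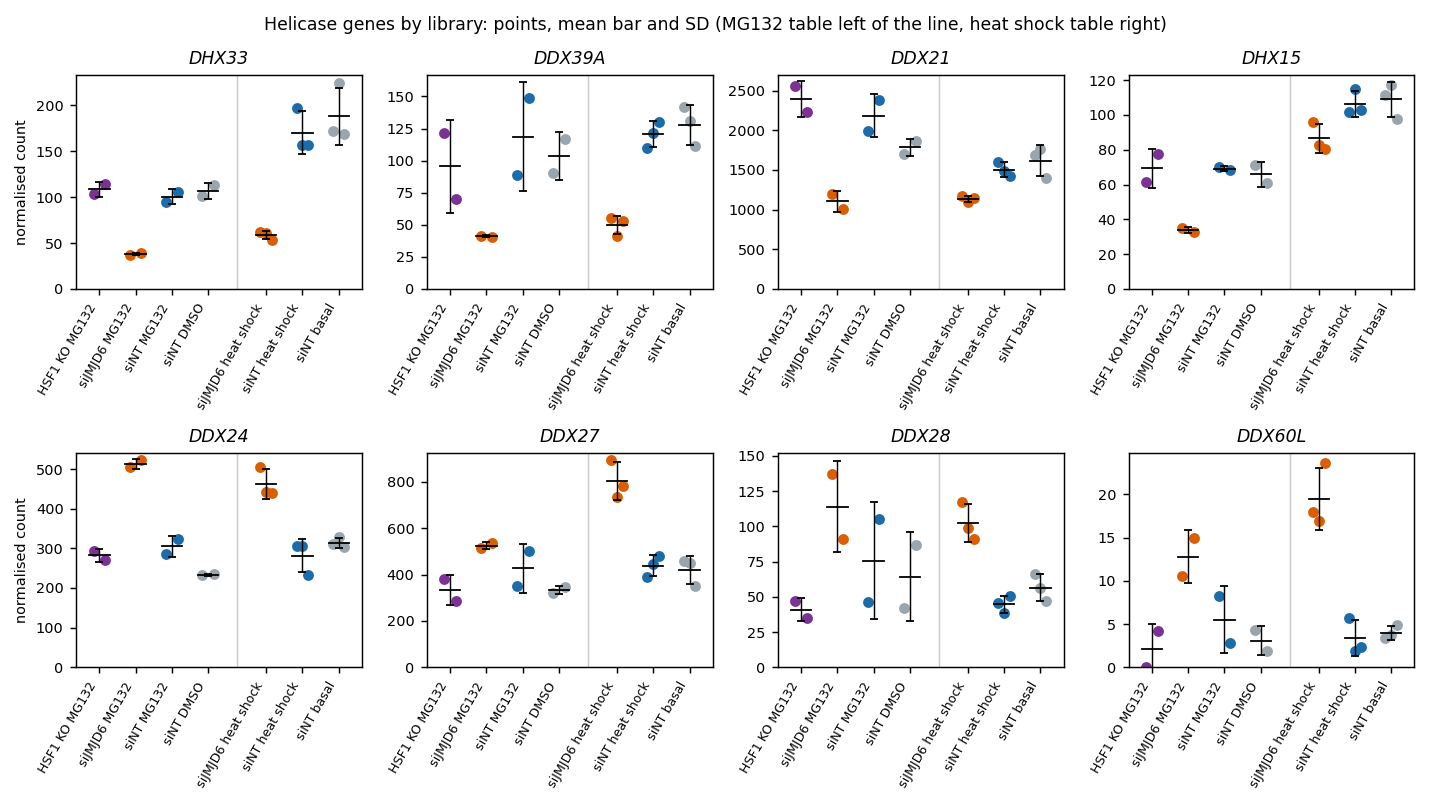
Normalised counts of 8 helicase genes in each library (points), with the group mean (long bar) and SD (whiskers), for the 4 groups of the MG132 table left of the grey line and the 3 of the heat shock table right of it; n = 2 or 3 libraries a group. For DHX33 the siJMJD6 libraries lie at 37.3 to 62.5 and all others above 90, whereas for DDX24 the siJMJD6 libraries are the highest of each table.

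Among helicases that rose after heat shock in siJMJD6 cells, the ribosome assembly factor DDX27 had 894, 735 and 782 normalised counts, against 390.2, 444 and 481 in siNT cells. The difference was 0.87 ± 0.10 (limma adjusted p 7.98e-09), and the groups lay well apart. DDX24 had 506, 443 and 439 in siJMJD6 cells, against 306, 306 and 234 in siNT cells, a difference of 0.72 ± 0.10 with an adjusted p of 6.47e-07. DDX52, whose yeast counterpart Rok1 acts on the small ribosomal subunit, had 42.3, 56.2 and 46.1 in siJMJD6 cells, against 19.2, 30.8 and 24.6 in siNT cells, a difference of 0.94 ± 0.22 and an adjusted p of 0.000802. Ribosome assembly helicases therefore stood on both sides, with DHX33, DDX21 and DDX18 lower and DDX27, DDX24 and DDX52 higher.

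Of the spliceosome helicases, DDX46, which acts with the U2 particle, had 323, 269 and 266 normalised counts in siJMJD6 cells after heat shock, against 204, 190 and 201 in siNT cells. DDX23, a helicase of the U5 particle, had 202, 199.7 and 192 in siJMJD6 cells, against 139, 127 and 137 in siNT cells. DHX38, a DEAH box helicase of the catalytic steps of splicing, had 184, 193 and 207 in siJMJD6 cells, against 131, 143 and 149 in siNT cells. All 3 rose with no overlap between groups, by 0.52 ± 0.11, 0.55 ± 0.12 and 0.46 ± 0.12, with limma adjusted p of 0.000223, 0.000371 and 0.00199. DDX41, a spliceosome-bound helicase also known as a DNA sensor, had 107, 73.3 and 82.3 in siJMJD6 cells, against 57.9, 66.8 and 72.3 in siNT cells, a difference of 0.39 ± 0.16 and an adjusted p of 0.0430. Its groups came within about 1 normalised count of each other. Leaving out siNT heat shock replicate 1 or 2 or siJMJD6 heat shock replicate 1 or 3, or dropping the filter, ended the call, with adjusted p up to 0.270.

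DDX28, a mitochondrial helicase that helps to build the mitochondrial ribosome, had 117, 98.7 and 91.2 normalised counts in siJMJD6 cells after heat shock, against 45.3, 38.5 and 50.5 in siNT cells. The difference was 1.18 ± 0.18 (limma adjusted p 1.21e-06), with every siJMJD6 library above every siNT library. DDX19A, a close copy of the export helicase DDX19B, had 85.5, 62.7 and 73.5 in siJMJD6 cells, against 55.0, 47.6 and 37.1 in siNT cells, a difference of 0.66 ± 0.19 and an adjusted p of 0.00546. DDX19B itself was not called and its groups overlapped, and reads may be shared between the 2 copies. DHX36, which unwinds G-quadruplexes, had 178, 154 and 140.2 in siJMJD6 cells, against 149, 104 and 109 in siNT cells, a difference of 0.39 ± 0.14 with an adjusted p of 0.0183. Its groups overlapped, and the call was lost without siNT heat shock replicate 2 or 3 or siJMJD6 heat shock replicate 1, with adjusted p up to 0.122.

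DDX60L, a relative of DDX60, was low in every library, and it reached the filter of 10 normalised counts in the 3 siJMJD6 libraries of the heat shock table alone. It was therefore tested only through the group where it is high, and its values are given as a description. It had 17.9, 17.0 and 23.6 normalised counts in siJMJD6 cells, against 5.73, 1.93 and 2.35 in siNT cells after heat shock, while basal siNT cells held 3.37, 3.72 and 4.90. The difference of siJMJD6 over siNT cells was 2.33 ± 0.47, and 1.15 with a pseudocount of 10 in place of 1. Under MG132 it had 10.6 and 15.0 in siJMJD6 cells, against 8.24 and 2.79 in siNT cells, a difference of 1.20 ± 0.93, where again the siJMJD6 libraries alone reached 10. DDX58, the gene of an RNA sensor known today as RIGI and too low to be tested, had 8.43, 9.52 and 21.7 in siJMJD6 cells after heat shock, against 3.83, 8.01 and 1.81 in siNT cells. DDX60 had 3.19, 8.39 and 1.94 in siJMJD6 cells, against 3.86, 3.96 and 0 in siNT cells, and its close copy DDX60L may share reads with it.

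The promoter of DDX60L is shown because it holds, in capitals, the letters of an interferon response element, GAAA and GAAA with any 2 bases between them. It was taken from RefSeq (GRCh38.p14) as 250 bases before to 50 after the annotated start, on the minus strand, at chr4:168480443-168480742.
DDX60L promoter: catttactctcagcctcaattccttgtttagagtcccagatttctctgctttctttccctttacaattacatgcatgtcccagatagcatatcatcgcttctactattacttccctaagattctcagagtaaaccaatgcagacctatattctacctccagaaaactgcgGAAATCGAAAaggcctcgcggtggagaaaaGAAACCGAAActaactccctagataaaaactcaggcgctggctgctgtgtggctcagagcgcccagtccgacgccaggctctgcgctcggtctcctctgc
Both strands were searched, and the window holds 2 matches. The motif was in 3.57% of 35116 windows of this length and in 3 of 60 windows (5%) of helicase genes. Those 60 windows belonged to 46 helicase genes, and the 3 were those of DDX60, DDX60L and DHX15. The heat shock element, GAA, TTC and GAA with any 2 bases between each, was in 0.49% of all windows. It was in 1.67% of helicase windows, in that of DDX4 alone. In all 10 motifs were searched, and a match is a stretch of letters, not evidence of binding. The ETS motif CCGGAAGT was in 18.3% of helicase windows and 4.14% of all, and the E-box CACGTG in 15% and 7.26%. For CCAAT these shares were 45% and 34.6%, for NRF1 3.33% and 1.24%, and for YY1 1.67% and 0.849%. Lower among helicases were GAANNTTC at 3.33% and 6.77%, the amino acid response motif at 0% and 0.866%, and M8 at 0% and 0.424%. None of these gaps was tested.

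The JMJD6 siRNA was compared with siNT in both tables, which share no library. Of 44 helicase genes tested in both, 3 were lower in both (DHX33, DDX39A and DDX21), 1 was higher in both (DDX24) and 0 were called in opposite directions. The 3 were 6.82% of the helicase genes tested in both, where 6.13% of all genes were lower in both. They were 75% of the 4 helicases that fell under MG132 and 60% of the 5 that fell after heat shock. Over all 9379 genes tested in both tables, 575 were lower in both, 80.9% and 24.0% of each list of falls, 488 were higher in both and 13 were called in opposite directions. DDX52 was called after heat shock at 0.94 and stood at -0.77 ± 0.32 under MG132, where it was not called (limma adjusted p 0.128).

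**Figure D4:**
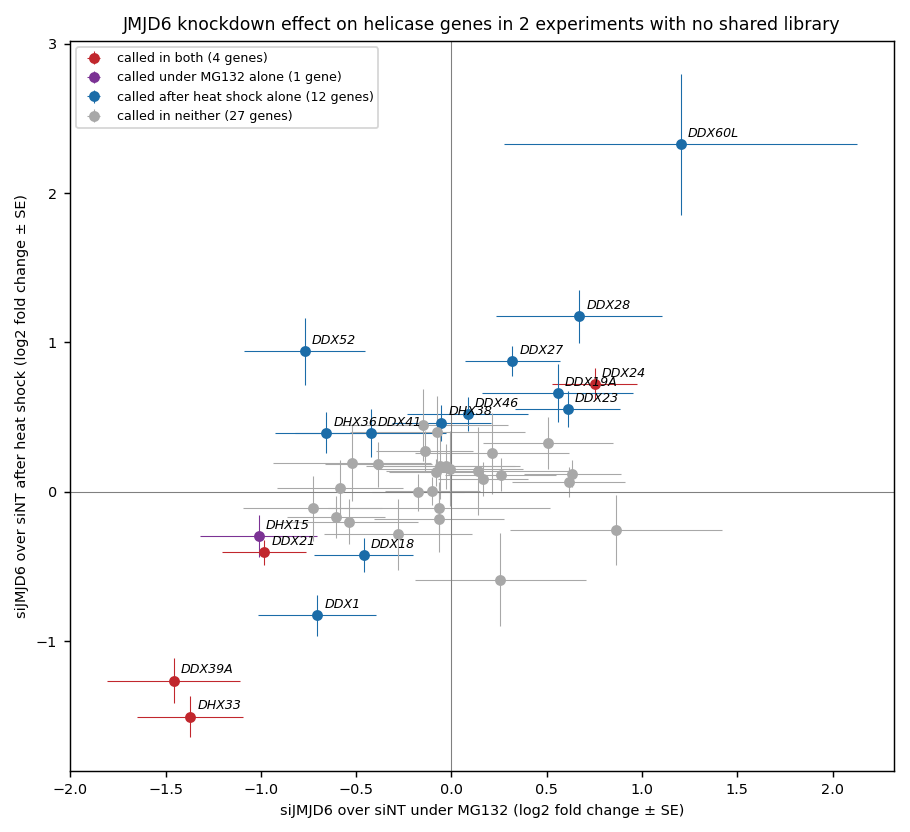
Log2 fold change of siJMJD6 over siNT for 44 helicase genes, under MG132 (horizontal) and after heat shock (vertical), with SE bars; colours mark in which table a gene was called. DHX33, DDX39A and DDX21 sit at lower left and DDX24 at upper right among those called in both, while DDX52 lies at upper left, at -0.77 and 0.94.

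HSF1 KO cells under MG132 were compared with siNT cells under MG132, where the knockout and the missing siRNA cannot be told apart. Here 0 of 45 helicase genes were called by limma, where 1.28% of all genes were, 0.276% higher and 1.00% lower. At an unadjusted p under 0.05 there were 5 higher and 2 lower, against 12.8% of all genes. The median helicase difference was 7.85e-05, and for all genes it was 0.01. DDX50 had 219 and 247 normalised counts in KO cells, against 137 and 124 in siNT cells, a difference of 0.83 ± 0.26 with an adjusted p of 0.166. DDX52 had 50.5 and 35.1 in KO cells, against 77.2 and 89.0 in siNT cells, a difference of -0.96 ± 0.32 (adjusted p 0.199), and DDX18 had 218 and 232 in KO cells, against 162 and 126 in siNT cells, a difference of 0.65 ± 0.26 (adjusted p 0.303). Groups did not overlap for these 3, and for 9 higher and 11 lower helicase genes in all, where 23.7% and 21.7% of all genes were so placed. The 9 include DDX26B, which would miss the filter if the KO libraries were not counted.

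KO cells were also compared with siJMJD6 cells, both under MG132. The knockout, the JMJD6 knockdown and the missing siRNA of KO cells cannot be told apart here. This comparison shares libraries with those above, so its values are given side by side and not as independent results. Of 45 helicase genes 6 were higher and 3 lower in KO cells, where 20.8% of all genes were called, 11.1% higher and 9.69% lower. At an unadjusted p under 0.05 there were 11 higher and 6 lower, against 35.0% of all genes. Groups did not overlap for 13 higher and 11 lower, where 32.4% and 28.7% of all genes were so placed. The 11 include DDX60L, which passed the filter through its siJMJD6 libraries alone. Without DDX60L and DDX26B, 6 of 43 were called higher and 3 lower. DDX50 had 219 and 247 normalised counts in KO cells, against 77.7 and 93.8 in siJMJD6 cells, a difference of 1.44 ± 0.26 (SE, n = 2 each) with a limma adjusted p of 0.00234. DHX33 had 103 and 114 in KO cells, against 37.3 and 39.0 in siJMJD6 cells, a difference of 1.49 ± 0.28 (adjusted p 0.00305). These 2 calls held in all 13 alternative fits, and the groups lay far apart. DDX21 had 2555 and 2234 in KO cells, against 1199 and 1014 in siJMJD6 cells, a difference of 1.11 ± 0.22 (adjusted p 0.00434), and lost its call without KO A, at an adjusted p of 0.0570.

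Each other called helicase of that comparison lost its call in some fits with 1 library left out. Over all genes the 2033 calls fell to 654 without KO A and 747 without KO B. DDX18 had 218 and 232 normalised counts in KO cells, against 107 and 99.4 in siJMJD6 cells, a difference of 1.11 ± 0.26 with a limma adjusted p of 0.00963. DDX24 had 293 and 271 in KO cells, against 504 and 522 in siJMJD6 cells, a difference of -0.86 ± 0.22 (adjusted p 0.0166). Groups did not overlap, and both calls were lost without KO A or KO B, with adjusted p up to 0.0815 and 0.115. DDX23 had 80.3 and 65.0 in KO cells, against 138 and 155 in siJMJD6 cells, a difference of -1.01 ± 0.27 (adjusted p 0.0203), and its call was lost without KO A, KO B or siJMJD6 MG132 replicate 2. DDX28 had 46.9 and 35.1 in KO cells, against 137 and 91.1 in siJMJD6 cells, a difference of -1.44 ± 0.44 (adjusted p 0.0332), and its call was lost without KO A, KO B or siJMJD6 MG132 replicate 1, or without the filter. The adjusted p of these 2 reached 0.149 and 0.195. DHX15 and DDX39A were higher in KO cells by 1.01 ± 0.31 and 1.14 ± 0.35, with adjusted p of 0.0340 and 0.0344. Their calls were lost without KO A or either siJMJD6 library, and with only these groups fitted. For DHX15 the call was also lost without KO B or either DMSO library, and for DDX39A without the filter. Over the alternative fits the differences ran from 0.84 to 1.17 for DHX15 and from 0.75 to 1.53 for DDX39A.

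MG132 against DMSO in siNT cells gave 0 calls among 45 helicase genes by limma, where 0.266% of all genes were called, 0.205% higher and 0.0614% lower. At an unadjusted p under 0.05 there were 1 higher and 1 lower, against 5.66% of all genes. DHX36 had 118 and 142 normalised counts under MG132, against 77.0 and 90.8 under DMSO, a difference of 0.63 ± 0.27 with an adjusted p of 0.832. DHX32, a little-studied relative, had 10.3 and 7.52 under MG132, against 20.2 and 27.2 under DMSO, a difference of -1.32 ± 0.55 (adjusted p 0.831). DHX40 had 136 and 135 under MG132, against 99.0 and 98.0 under DMSO, a difference of 0.46 ± 0.26 (adjusted p 0.911). Groups did not overlap for these 3, and for 13 higher and 5 lower helicase genes in all, where 18.3% and 18.0% of all genes were so placed.

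Heat shock against basal in siNT cells also gave 0 calls by limma, among 44 helicase genes, where 4.09% of all genes were called, 2.86% higher and 1.23% lower. At an unadjusted p under 0.05 there were 1 higher and 3 lower, against 15.1% of all genes. The ribosome assembly helicase DDX51 had 46.3, 63.9 and 44.0 normalised counts after heat shock, against 64.6, 76.6 and 77.2 at rest, a difference of -0.51 ± 0.18 with an adjusted p of 0.127. DDX52 had 19.2, 30.8 and 24.6 after heat shock, against 35.4, 34.6 and 43.5 at rest, a difference of -0.60 ± 0.22 (adjusted p 0.154). DHX32 had 36.7, 30.1 and 36.1 after heat shock, against 40.4, 43.5 and 74.4 at rest, a difference of -0.56 ± 0.23 (adjusted p 0.225). Groups were apart for these 3, and for 1 higher and 5 lower helicase genes in all, where 10.5% and 9.21% of all genes were. The median helicase difference was -0.03 with a median SE of 0.15.

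Genes that work with these helicases were read from lists. The translation initiation helicase EIF4A2 and the exon junction helicase EIF4A3, DEAD box proteins under another name, were not called in the MG132 table. After heat shock EIF4A3 averaged 529 ± 42.6 normalised counts in siJMJD6 cells and 379.5 ± 35.3 in siNT cells (SD, n = 3 each), a difference of 0.48 ± 0.09 (limma adjusted p 7.82e-05). EIF4A2 averaged 275 ± 49.4 in siJMJD6 cells and 181 ± 21.5 in siNT cells, a difference of 0.59 ± 0.12 (adjusted p 0.000202). EIF4A1 was not analysed here.

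Of 16 other RNA helicases tested after heat shock, 5 rose and 0 fell with the JMJD6 siRNA, where 21.4% of all genes were higher and 24.9% lower. HELZ2 and ZNFX1, both known from antiviral responses, and DICER1, which cuts microRNA precursors, were higher by 1.25 ± 0.22, 0.73 ± 0.16 and 0.74 ± 0.16, with limma adjusted p of 2.26e-05, 0.000208 and 0.000259. Under MG132 DICER1 was the 1 call among 15, where 13.6% of all genes were called, at 1.29 ± 0.39 with an adjusted p of 0.0427. That call was lost without siJMJD6 MG132 replicate 2 or any siNT or KO library, without the filter or with only these groups fitted. The difference ranged from 0.89 to 1.70. DICER1 was lower in KO than in siJMJD6 cells, at -2.12 ± 0.39 (adjusted p 0.00258).

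G-patch proteins switch on DEAH box helicases, and 18 of them were tested. With the JMJD6 siRNA after heat shock 1 rose and 6 fell, against the same 21.4% and 24.9% of all genes. GPATCH4 averaged 393 ± 36 normalised counts in siJMJD6 cells and 224 ± 14 in siNT cells (SD, n = 3 each), a difference of 0.80 ± 0.11 (limma adjusted p 4.02e-07). GPKOW averaged 25.8 ± 1.52 in siJMJD6 cells and 50.7 ± 2.05 in siNT cells, a difference of -0.95 ± 0.20 (adjusted p 0.000244), and RBM10 fell by 0.39 with an adjusted p of 0.00713. Under MG132 CHERP alone was called, where 13.6% of all genes were, and fell, with a difference of -0.91 ± 0.28 (adjusted p 0.0450). That call was lost when any 1 of the 8 libraries was left out, without the filter, under quantile scaling or with only these groups fitted. The difference ranged from -1.06 to -0.76. In KO against siJMJD6 cells, where 11.1% of all genes were higher, GPKOW, RBM17 and CHERP were higher, by 1.79 ± 0.43, 1.54 ± 0.40 and 0.84 ± 0.28, with adjusted p of 0.0110, 0.0164 and 0.0468. GPKOW and RBM17 lost their calls without KO A, KO B or siJMJD6 MG132 replicate 1. RBM17 also lost its call without the filter, and ranged from 0.75 to 2.34. CHERP lost its call without any 1 of the 8 libraries, without the filter, under TMM or quantile scaling and with only these groups fitted. Adjusted p reached 0.104, 0.109 and 0.260. The nucleolar G-patch protein NKRF was the 1 gene of these lists called in heat shock against basal, where 4.09% of all genes were called. The lists held 2, 16, 18 and 28 tested genes there. The NKRF difference was 0.67 ± 0.19 (adjusted p 0.0283). Its call was lost without siNT basal replicate 2 or 3 or siNT heat shock replicate 1 or 2, with adjusted p up to 0.124.

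Of 28 partners of DEAD box proteins, 6 rose and 12 fell with the JMJD6 siRNA after heat shock, where 21.4% of all genes were higher and 24.9% lower. GLE1, which activates the export helicase at the nuclear pore, averaged 221 ± 16.9 normalised counts in siJMJD6 cells and 103 ± 12.8 in siNT cells (SD, n = 3 each), a difference of 1.09 ± 0.13 (limma adjusted p 1.85e-08). The initiation factor relative EIF4G2 averaged 1081 ± 82.3 in siJMJD6 cells and 1591 ± 97.7 in siNT cells, a difference of -0.56 ± 0.08 (adjusted p 2.33e-07). MAVS, the signalling partner of the sensor encoded by DDX58, averaged 352 ± 18.8 in siJMJD6 cells and 216 ± 45.2 in siNT cells, a difference of 0.72 ± 0.12 (adjusted p 4.25e-06).

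Under MG132 MAVS and the export receptor NXF1 rose in siJMJD6 against siNT cells, by 1.31 ± 0.28 and 1.24 ± 0.32 with limma adjusted p of 0.00923 and 0.0250, and 2 partners fell, among them CNOT1, with a difference of -0.86 ± 0.26 (adjusted p 0.0441). The MAVS call was lost without siNT MG132 replicate 1, and that of NXF1 without any 1 of the 4 libraries compared. That of CNOT1 was lost without any 1 library but siJMJD6 MG132 replicate 2. The NXF1 and CNOT1 calls were also lost with only these groups fitted, and that of CNOT1 without the filter. Adjusted p reached 0.0935, 0.127 and 0.199. In siJMJD6 against siNT cells 6.22% of all genes were higher and 7.35% lower. In KO against siJMJD6 cells 4 partners were higher and 3 lower, where 11.1% and 9.69% of all genes were. MAVS was lower, at -1.75 ± 0.28 (adjusted p 0.00109), and so was CTIF, a cap-binding complex factor, at -2.46 ± 0.53 (adjusted p 0.00668), or -1.23 with a pseudocount of 10. RBM8A, of the exon junction complex, was higher, at 0.85 ± 0.22 (adjusted p 0.0161). RBM8A lost its call without KO A or KO B, with adjusted p up to 0.102.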

How the data were processed

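Libraries were made with QuantSeq FWD from total RNA, per the labels' protocols. The signal values are the authors' normalised counts, deposited as 2 tables; the submitters' processing notes name FastQC 0.11.2, STAR 2.6.0, HTSeq and build hg38. The annotation, strandedness, filter and scaling behind them are not given in the sources consulted. Whole reads could not be recovered (from 13.3% to 100% of values between 0.5 and 1.5 lay within 0.05 of their library's median), so read depth is unknown, and counting error is part of the spread between libraries.

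With limma 3.58.1 (R 4.3.3), 1 model with a variance trend was fitted to the log2 of each value plus 1, over all groups of a table. Genes reaching 10 normalised counts in 2 (MG132 table) or 3 (heat shock table) libraries were tested, 9778 and 9831 in all. P-values were adjusted by Benjamini-Hochberg within each of 6 comparisons, at a threshold of 0.05. Replicate numbers were not used as pairs. Alternatives were a pseudocount of 10, no filter, TMM scaling (computed from its definition), quantile normalisation, a fit of only the 2 groups compared, a replicate block, and each library left out.

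Every called helicase gene was named, up to 12 a direction, or the 3 of smallest p where fewer than 3 were called. The 5 of highest level in each table and up to 3 called genes of each partner list were also named. The members and lists were chosen with earlier results of these data known. Roles and lists were written from general knowledge. All 17 columns were matched to a label. Sequences came from RefSeq promoters (GRCh38.p14) and GENCODE 29 transcripts, both of the build the notes name.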

Additional observations from a re-analysis of the deposited data

Results flagged for a closer look

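In 5 cases, among 44 helicase genes compared between the tables, every library moved one way in one table and the opposite way in the other. The differences between tables were not tested, and each table was normalised by itself. Opposite moves were not counted over all genes, where groups that do not overlap are common. For siJMJD6 against siNT, 25.2% of all genes were so placed higher and 28.8% lower after heat shock, and 24.9% and 28.1% under MG132. For stress over no stress these shares were 10.5% and 9.21% with heat shock, and 18.3% and 18.0% with MG132. For DDX52, siJMJD6 over siNT was 0.94 after heat shock and -0.77 under MG132, a gap of 1.71 on the log2 scale. For DHX40 the same contrast was 0.27 after heat shock and -0.14 under MG132, a gap of 0.41. For stress over no stress in siNT cells, DDX41 was at -0.32 after heat shock and 0.69 with MG132, a gap of -1.01. DDX52 was at -0.60 after heat shock and 0.36 with MG132, a gap of -0.97, and DHX9, an RNA helicase of transcription and splicing, at 0.32 and -0.39, a gap of 0.71. Of these 10 effects, only that of DDX52 in siJMJD6 cells after heat shock was called. No group held enough libraries for a test of single outlying libraries.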

How the results depend on the processing

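Helicase genes called in siJMJD6 against siNT cells under MG132 numbered 5, but 3 without the filter on low values and 2 with only the 2 groups fitted, and 1 to 4 with 1 library left out; the cause was not tested. In KO against siJMJD6 cells 9 were called, 7 to 10 under the other settings and 2 to 9 with 1 library left out, the lowest without KO A. After heat shock the 16 calls of siJMJD6 against siNT cells became 16 to 18 and, with 1 library left out, 14 to 16. The other comparisons had 0 calls in every fit run. Over all settings and named genes, 776 values kept their direction and side of the threshold, 118 kept their direction but no longer passed, and 0 reversed. Fits that kept both compared groups whole, with the same scaling and pseudocount, leave the difference unchanged, so no reversal was possible there. The genes were also named for their calls or smallest p, so these counts do not measure how stable the results are.

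The labels do not say what libraries of the same number share, so the numbers were not used as pairs in the main fit. In the MG132 table, over only 2 numbers, deviations of same-numbered siNT DMSO and siNT MG132 libraries had a correlation of 0.368. It was 0.318 for siNT DMSO with siJMJD6 MG132 and 0.0447 for siNT MG132 with siJMJD6 MG132. Correlations in the heat shock table ran from -0.0348 to 0.0943. Whether the numbers mark a shared factor in the MG132 table was not tested. With a replicate block, helicase calls were 0 for MG132 against DMSO, 5 for siJMJD6 against siNT under MG132, 0 for heat shock against basal and 16 for siJMJD6 against siNT after heat shock, as without it. Calls over all genes were 41, 1811, 420 and 4589 with the block, against 26, 1327, 402 and 4557 without it. KO libraries are lettered, so the block fits of the MG132 table left them out, and no KO comparison had a block. The changes in that table mix the block with the loss of the KO libraries, and their parts were not tested.

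Calls over all genes moved most for MG132 against DMSO (26, but 6 without the filter and 10 to 31 with 1 library left out), siJMJD6 against siNT under MG132 (1327, but 675 without the filter, 687 with the 2 groups alone and 351 to 1268 with 1 library left out), KO against siNT (125, but 29, 213 and 43 to 185) and KO against siJMJD6 (2033, but 654 to 2019 with 1 library left out). With 2 or 3 libraries a group and unknown read depth, a gene that was not called is not shown to be unaffected.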
